A study of Homo sapiens with 6 samples.

Results

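RNA of 42 genes for lysosomal enzymes, lysosomal membrane proteins and the lysosomal proton pump was compared between tamarixetin-treated and control HepG2 cells. The genes were taken as a fixed list of symbols, and all 42 were found by exact match among the 43424 gene symbols of the count tables. They comprise 7 cathepsins, 8 glycosidases, 6 other hydrolases, 3 lipid transfer and activator proteins, 6 membrane proteins and 12 genes of the proton pump. HepG2 is an established line of human liver cancer cells, labelled wild type here, so all values come from a single line. The 3 control libraries are labelled as given no treatment. The other 3 came from cells kept for 24 h with tamarixetin at 10 µM; tamarixetin is the flavonol quercetin with a methyl group on an oxygen of its B ring. The protocols in the labels place the compound in medium containing 1% serum and name neither a vehicle nor the serum of the controls over those 24 h, so compound and medium cannot be told apart. The labels call the samples of a group biological replicates.

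Lysosomes are acidic organelles in which soluble hydrolases break down proteins, glycans and lipids delivered by endocytosis and autophagy. The vacuolar ATPase (V-ATPase) acidifies them: its V1 sector hydrolyses ATP and its membrane-embedded V0 sector carries protons into the lumen. CLEAR elements, the sequences bound by TFEB, TFE3 and MITF, occur in promoters of genes for lysosomal proteins. In hepatocytes the organelle also turns over plasma proteins, glycogen and lipoprotein cholesterol.

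Total counts ran from 11980585 to 16168855 per library. QuantSeq 3′ libraries give about 1 fragment per transcript, so levels in CPM (counts scaled to a common library size, with TMM factors) can be compared between genes without a length correction. The share of mitochondrial transcripts was 10.7% ± 0.391 in the controls and 8.24% ± 0.278 with tamarixetin (SD, n = 3 each). All 10 hepatocyte markers were expressed, and in all 10 every tamarixetin library was below every control, as in 24.5% of all genes tested. Their summed level was 19129 to 19660 CPM in control and 11010 to 11314 CPM in tamarixetin libraries. Of 11 macrophage markers 3 had enough counts for a test, and their summed level was 908 to 1011 CPM in control and 767 to 823 CPM in tamarixetin libraries. LYZ made up most of that sum, with 895, 918 and 996 CPM in control and 807, 787 and 750.1 CPM in tamarixetin libraries. CD68, also tested, had 11.3 to 15.2 CPM over all libraries and did not pass (log2 0.20). CD14, the third one tested, fell from a mean of 1.92 to 0.432 CPM (log2 -2.07, adjusted p = 1.11e-04 in edgeR). Of the markers not tested, CSF1R, CD163, MARCO, PTPRC and C1QA had 0 to 0.385 CPM in each library. C1QB had 0 to 0.0825 CPM, TYROBP had 0 to 0.990 CPM and C1QC had 0 counts. Of the stellate cell and fibroblast markers 5 of 6 could be tested, with a summed level of 39.9 to 45.1 CPM in control and 36.5 to 38.9 CPM in tamarixetin libraries. The 5 endothelial markers summed to 0.878 to 1.42 CPM in control and 1.01 to 1.90 CPM in tamarixetin libraries; KDR and STAB2 had 0 counts, and PECAM1, the only one tested, did not pass. The part that any of these shifts has in the lysosomal results was not tested. In bulk RNA of a single line, fewer cells that express a gene and less of its RNA per cell cannot be told apart.

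More of the lysosomal genes were higher than lower with tamarixetin, by small amounts. Of 41 that had enough counts to be tested, 22 rose (53.7%), 4 fell (9.76%) and 15 did not pass (edgeR's quasi-likelihood test, Benjamini-Hochberg adjusted p under 0.05 over 13198 genes). Over all genes tested, 22.4% rose and 21.3% fell, and 43.7% changed in either direction. The lysosomal genes were more abundant than the typical gene, with a median of 57.8 CPM in control against 20.4 CPM, and 40 of the 41 had a mean of at least 10 CPM. Among all 8646 genes at or above that level, 53.1% changed, 27.4% rising and 25.7% falling. The median log2 fold change of the 41 was 0.21, against 0.00038 over all genes tested.

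The libraries of the 2 groups did not overlap in 28 of the 41 genes. All 3 tamarixetin libraries were above all 3 controls in 23 (26.0% of all genes tested did this), and below them in 5 (24.5% of all genes). Of the 26 genes that changed, 23 did so by less than 1.5-fold and 2, ASAH1 and GLA, by at least 2-fold. A rise of at least 1.5-fold was called for ASAH1, GLA and CTSC, 3 of 41 genes, against 7.27% of all genes. When the test asked for a change beyond 1.2-fold, 7 of 41 passed, ASAH1, GLA, CTSC, NEU1, CTSA and TPP1 higher and GM2A lower, against 19.4% of all genes (9.99% higher, 9.40% lower). Taken as a sum, the 42 genes stood at 4926, 4894 and 5005 CPM in the controls and at 5644, 5637 and 5605 CPM with tamarixetin.

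**Figure D1:**
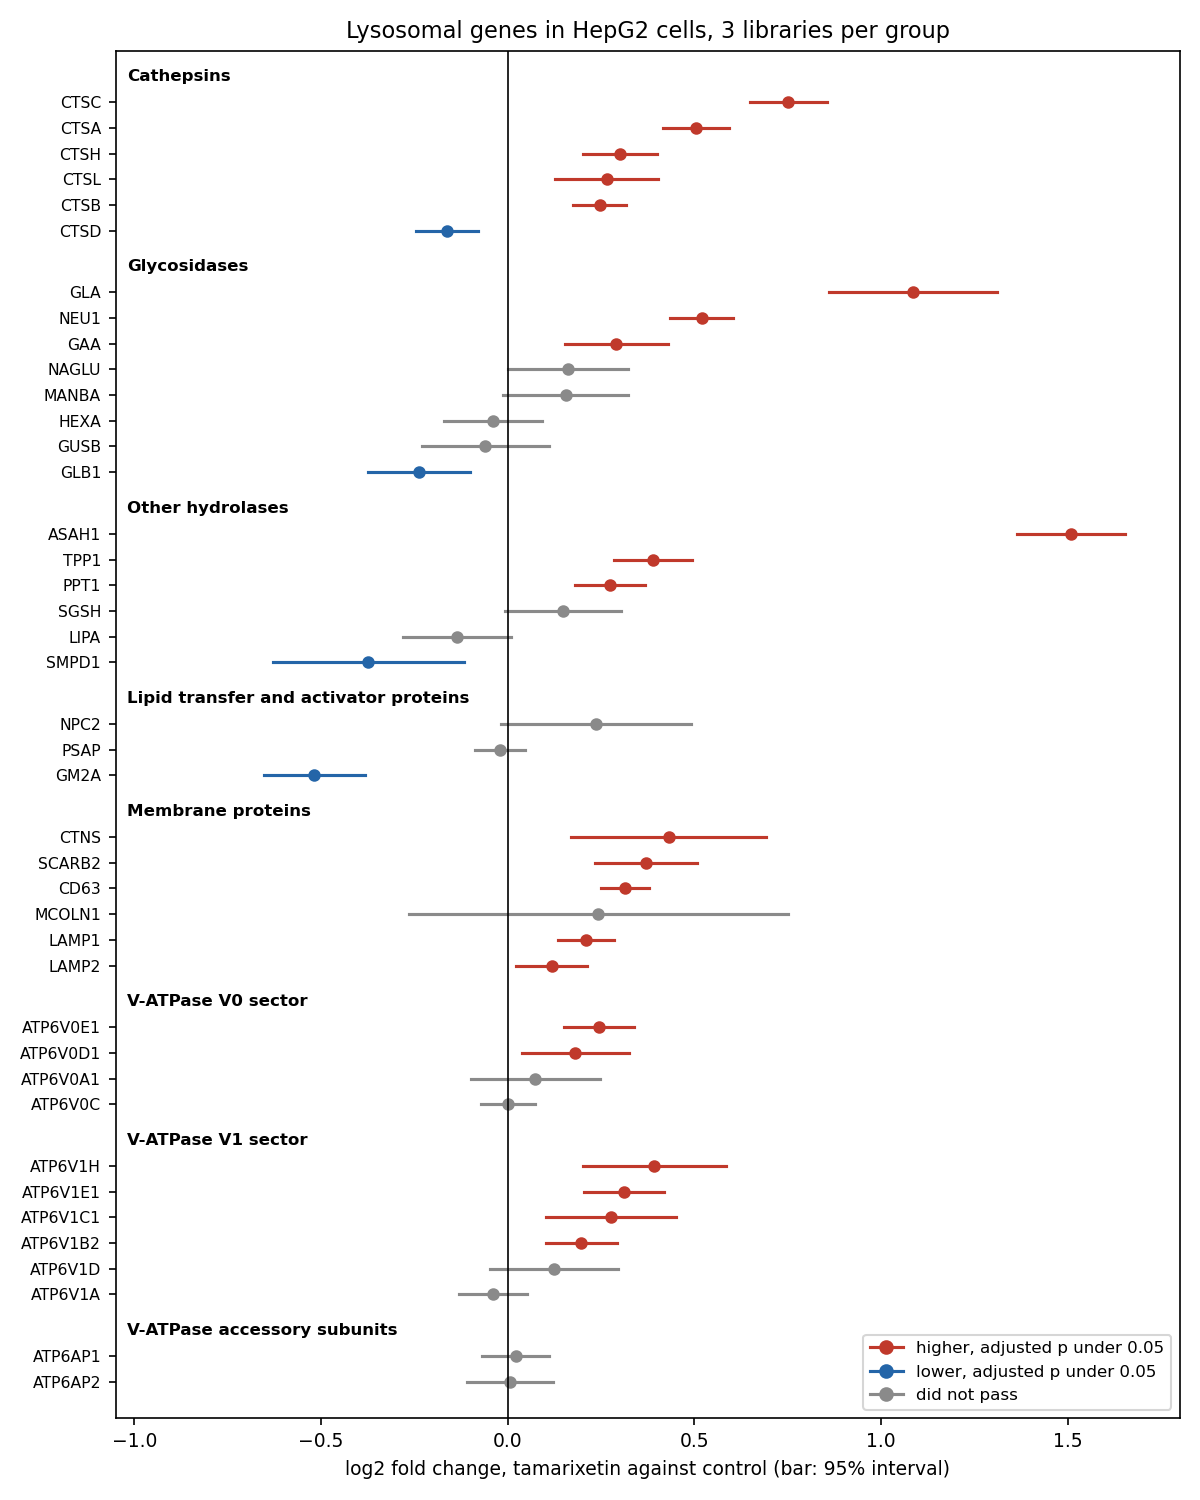
The log2 fold change of each of the 41 genes tested (x axis; tamarixetin against control) by class, with its 95% interval as a bar; red points rose, blue points fell and grey points did not pass an adjusted p of 0.05. ASAH1 (1.51) and GLA (1.09) lie farthest to the right and GM2A (-0.52) farthest to the left, and no gene of the proton pump is blue.

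Promoter sequence from RefSeq (GRCh38.p14; 250 bases before to 50 bases after the start) was at hand for 29 of the 42 genes. Windows were searched on both strands for TCACGTG, the core shared by CLEAR elements, which holds the E-box CACGTG. It was present in 7 of 29 (24.1%), against 5.97% of the windows of genes tested and 3.82% of all windows. The palindrome TCACGTGA, which contains TCACGTG on both strands, was in 5 of 29 (17.2%; 1.97% of genes tested). Windows of these genes were also richer in G and C, with a median of 69.3%, against 65.3% for genes tested.

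The following stretches, written 5′ to 3′ on the strand of the gene and ending before its start, show the TCACGTG matches in capitals, on either strand; a further match of LAMP1, which overlaps its start, is not shown. They are given for the genes that carry the core, so that the letters can be set beside the direction of each gene. NEU1 (sialidase) and CTSA (its carboxypeptidase partner) rose by similar amounts, GAA, LAMP1 and ATP6V0D1 rose by less, MCOLN1 did not pass and CTSD fell.
CTSA, chr20:45891280-45891328, plus strand: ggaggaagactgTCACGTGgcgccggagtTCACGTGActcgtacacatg
NEU1, chr6:31862930-31862960, minus strand: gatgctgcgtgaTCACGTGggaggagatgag
GAA, distal, chr17:80101492-80101523, plus strand: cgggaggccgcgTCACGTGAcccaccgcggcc
GAA, nearer the start, chr17:80101537-80101568, plus strand: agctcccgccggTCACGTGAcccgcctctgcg
LAMP1, distal, chr13:113297034-113297114, plus strand: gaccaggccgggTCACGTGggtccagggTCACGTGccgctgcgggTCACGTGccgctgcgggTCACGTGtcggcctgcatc
LAMP1, nearer the start, chr13:113297198-113297229, plus strand: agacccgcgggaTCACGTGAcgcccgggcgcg
ATP6V0D1, chr16:67481198-67481229, minus strand: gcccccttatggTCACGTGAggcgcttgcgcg
MCOLN1, chr19:7522570-7522623, plus strand: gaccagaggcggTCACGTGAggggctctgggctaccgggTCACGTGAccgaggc
CTSD, chr11:1763956-1763986, minus strand: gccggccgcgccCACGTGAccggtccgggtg

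By direction, TCACGTG stood in the windows of 5 of 15 genes that rose, 1 of 4 that fell and 1 of 9 that did not pass. Of the genes with the largest changes, CTSC, GLA and GM2A had windows without this core, and ASAH1 had no window in the table. The antioxidant response element, bound by NRF2 with small MAF proteins, was searched by its core TGACNNNGC on both strands. It was in 11 of 29 windows (37.9%), against 15.5% of genes tested, and in 8 of the 15 genes that rose, 1 of 4 that fell, 1 of 9 that did not pass and in CTSZ, which was not tested. The gene that fell was CTSD and the gene that did not pass was ATP6V0A1, and their stretches are not shown. CTSC is shown for this core because it rose most among the cathepsins and lacks TCACGTG, a choice made by its outcome.
CTSC, chr11:88337781-88337813, minus strand: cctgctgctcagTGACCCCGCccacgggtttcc
These matches describe letters in a window and say nothing of binding.

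Among the cathepsins, the proteases of the lysosome, 5 of 6 tested rose and 1 fell, with a median log2 fold change of 0.28. Of all genes tested, 22.4% rose and 21.3% fell. CTSC, a dipeptidyl peptidase that activates serine proteases of immune cells, stood at 76.0, 86.4 and 84.6 CPM in the controls and at 136, 142 and 137 CPM with tamarixetin. Its groups lay far apart, and the gene, which spans 88293592 to 88337736 of chromosome 11 (RefSeq, GRCh38.p14), rose 1.68-fold (log2 0.75, SE 0.052, adjusted p = 2.85e-24 in edgeR). CTSA, a serine carboxypeptidase that protects NEU1 and the beta-galactosidase GLB1 from degradation, had 150.1, 143 and 149 CPM in the controls and 198, 213 and 216 CPM in the treated libraries. The lowest treated library of CTSA was above the highest control, a rise of 1.42-fold (log2 0.50, SE 0.044, adjusted p = 3.74e-18 in edgeR). CTSA shares 200 exon bases with PLTP on the opposite strand in GENCODE 29, and PLTP fell (log2 fold change -0.59).

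CTSB, a cysteine protease and the most abundant cathepsin here, had 382, 408 and 401 CPM in control and 472, 469 and 469.6 CPM in treated libraries. The treated libraries of CTSB were nearly equal and all above the controls (log2 0.25, SE 0.036, adjusted p = 5.31e-09 in edgeR). CTSH, an aminopeptidase, and CTSL, an endopeptidase, rose by 0.30 and 0.27 on the log2 scale. CTSD, the main aspartic protease of lysosomes, went the other way, with 237, 215 and 233 CPM in the controls and 199, 209 and 203 CPM with tamarixetin. Its highest treated library was close under its lowest control, and the change on the log2 scale was -0.16 (SE 0.042, adjusted p = 7.12e-04 in edgeR). The count ratio of CTSB to CTSD was 1.75 ± 0.145 in control and 2.31 ± 0.0643 in treated libraries (SD, n = 3 each). CTSZ, a carboxypeptidase, had between 4 and 9 counts per library in all 6 libraries and was not tested; whether the annotation of the counts bears on its low count was not tested.

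**Figure D2:**
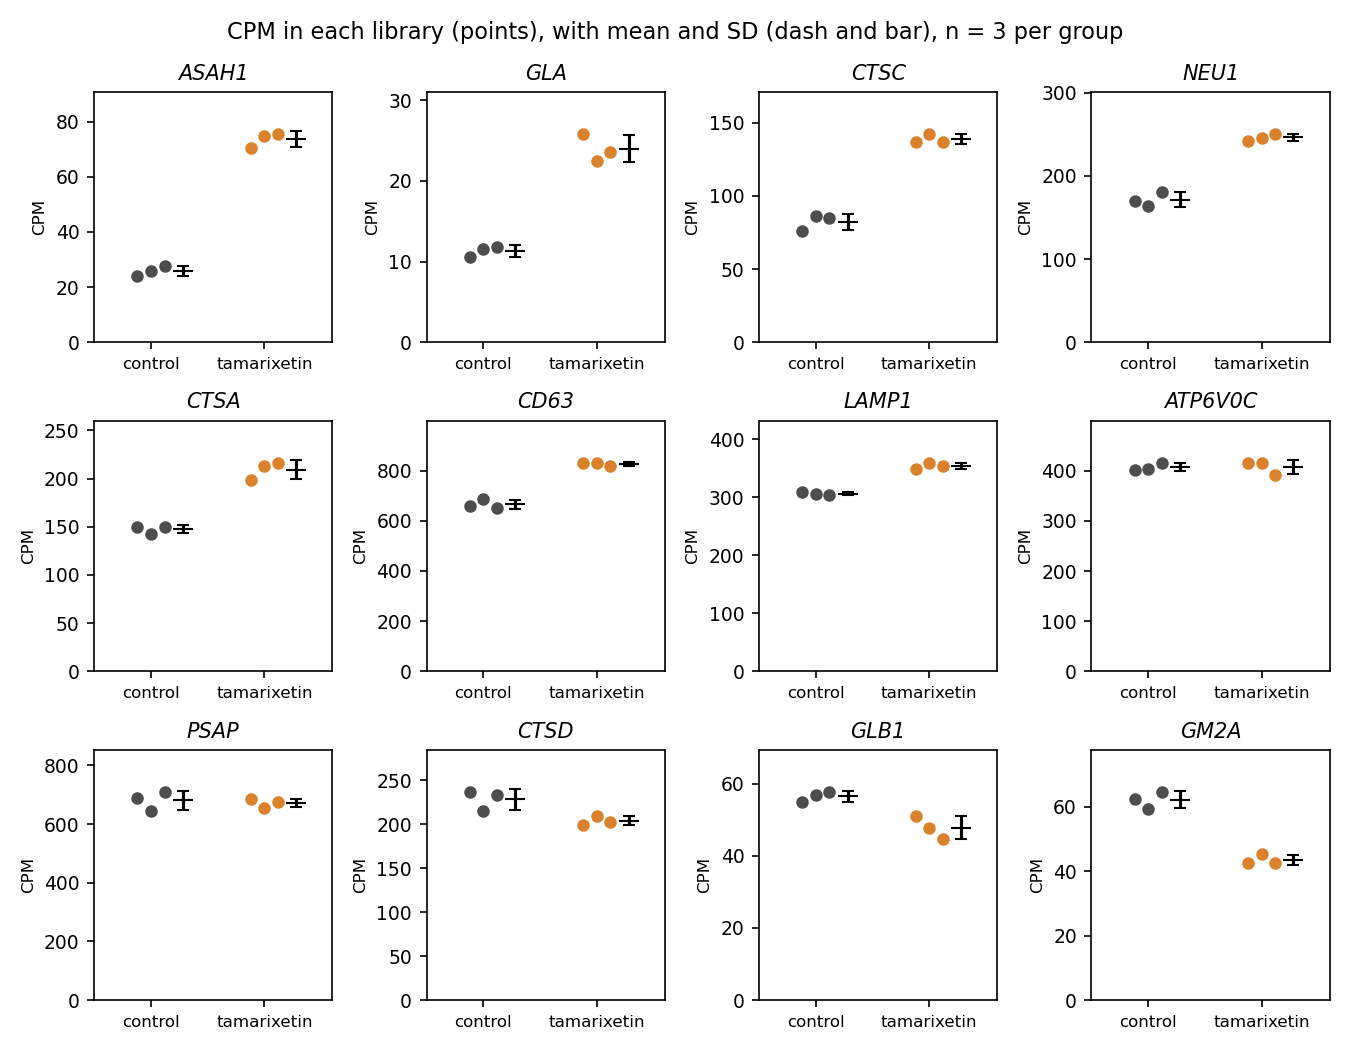
CPM (y axis, from 0) of 12 genes in each control (grey) and tamarixetin (orange) library, with the mean and SD of 3 libraries beside the points. Relative to their controls ASAH1, GLA and CTSC show the widest gaps (2.85-, 2.12- and 1.68-fold), the points of ATP6V0C and PSAP overlap, and CTSD, GLB1 and GM2A are lower in all treated libraries.

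Glycosidases, which remove sugars from glycoproteins, glycolipids and glycogen, were divided. Of 8, 3 rose (37.5%), 1 fell (12.5%) and 4 did not pass, against 22.4% and 21.3% of all genes that rose and fell. Their median log2 fold change was 0.16. GLA, the alpha-galactosidase deficient in Fabry disease, had 10.5, 11.6 and 11.8 CPM in the controls and 25.8, 22.5 and 23.6 CPM with tamarixetin. All treated libraries were far above the controls, a 2.12-fold rise of this gene of chromosome X (101397803 to 101407925) from a low level (log2 1.09, SE 0.113, adjusted p = 2.13e-14 in edgeR). NEU1, the lysosomal sialidase, was the most abundant glycosidase, at 169.7, 164 and 181 CPM in control and 242, 246 and 251 CPM in treated libraries. NEU1, on chromosome 6 (31857659 to 31862821), rose 1.43-fold with no overlap (log2 0.52, SE 0.042, adjusted p = 7.30e-20 in edgeR).

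GAA, which breaks down glycogen, had 50.7, 43.6 and 45.2 CPM in the controls and 58.2, 54.6 and 58.1 CPM with tamarixetin. All treated libraries of GAA were above the controls (log2 0.29, SE 0.069, adjusted p = 2.52e-04 in edgeR). GLB1, which cleaves terminal beta-galactose, had 54.8, 56.8 and 57.7 CPM in control and 51.1, 47.6 and 44.7 CPM in treated libraries. Unlike GAA and NEU1, GLB1 was lower in every treated library (log2 -0.24, SE 0.068, adjusted p = 0.00265 in edgeR). NAGLU and MANBA, which act on heparan sulfate and on mannosides, had log2 differences of 0.16 (95% interval 0.0011 to 0.32) and 0.16 (-0.013 to 0.32) and did not pass. GUSB and HEXA had differences of -0.060 and -0.039 with intervals that span 0.

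NEU1, CTSA and GLB1 form a complex in the lysosome. The count ratio of NEU1 to CTSA was 1.16 ± 0.0442 in control and 1.18 ± 0.0395 in treated libraries, a shift smaller than the spread between libraries. The ratio of NEU1 to GLB1 was 3.10, 2.88 and 3.14 in the controls and 4.74, 5.16 and 5.61 with tamarixetin, without overlap. This and the other ratios of partner genes were chosen after their values were seen and carry no test.

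The 6 other hydrolases held the largest rise. ASAH1, the acid ceramidase that splits ceramide into sphingosine and a fatty acid, had 24.1, 25.7 and 27.6 CPM in the controls and 70.3, 74.97 and 75.6 CPM with tamarixetin. Control and treated libraries lay far apart, and the gene rose 2.85-fold (log2 1.51, SE 0.073, adjusted p = 5.18e-35 in edgeR). Its change ranked 192nd of 13198 genes, counted from the largest rise. SMPD1, the acid sphingomyelinase that makes ceramide from sphingomyelin, had 13.8, 15.0 and 14.0 CPM in control and 10.7, 12.3 and 9.98 CPM in treated libraries. It was lower in each treated library (log2 -0.37, SE 0.129, adjusted p = 0.0134 in edgeR), but without tamarixetin replicate 3 it did not pass (adjusted p = 0.0709). The count ratio of ASAH1 to SMPD1 was 1.81 ± 0.137 in control and 6.75 ± 0.759 in treated libraries (SD, n = 3 each).

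TPP1, a tripeptidyl peptidase, had 90.7, 88.3 and 82.3 CPM in control and 113, 114 and 115 CPM in treated libraries, a log2 rise of 0.39 (SE 0.052). PPT1, which removes palmitate from proteins, had 133, 120.4 and 128 CPM in control and 157, 151 and 154 CPM in treated libraries, a log2 rise of 0.27 (SE 0.047). Neither gene overlapped between the groups. PPT1 and CAP1 lie on opposite strands and share 1189 exon bases in GENCODE 29; CAP1 rose too, by 0.50 on the log2 scale, and no source used here gives the strand setting of the counting, so the PPT1 value is uncertain. SGSH, a sulfamidase of heparan sulfate, and LIPA, the acid lipase that frees cholesterol from its esters, did not pass (log2 0.15, 95% interval -0.0064 to 0.30, and -0.14, -0.28 to 0.0085).

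The lipid transfer and activator proteins, which present lipids to hydrolases or carry them out, had no gene that rose. GM2A, the activator that lifts GM2 ganglioside out of membranes for degradation, had 62.5, 59.3 and 64.6 CPM in the controls and 42.5, 45.2 and 42.6 CPM with tamarixetin. This gene of chromosome 5 (151253185 to 151270440) fell the most of the 41, with no overlap (log2 -0.52, SE 0.068, adjusted p = 1.95e-10 in edgeR).

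PSAP, the precursor of the saposins that assist sphingolipid hydrolases, was the most abundant of the 42 genes. It had 688, 645 and 710.1 CPM in the controls and 685, 656 and 674 CPM with tamarixetin, with overlapping groups. Its log2 difference was -0.021 (95% interval -0.088 to 0.047), and scaled by library size alone it was 0.014. NPC2, which hands cholesterol to NPC1, had 12.6, 10.6 and 13.5 CPM in control and 14.0, 12.9 and 16.8 CPM in treated libraries, and did not pass (log2 0.24, adjusted p = 0.128 in edgeR).

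Of the 6 membrane proteins, 5 rose, none fell and MCOLN1 did not pass, with a median log2 fold change of 0.28. Over all genes tested 22.4% rose. CD63, a tetraspanin of lysosomes and multivesicular bodies, had 658, 687 and 652 CPM in the controls and 832, 832 and 819 CPM with tamarixetin. It rose 1.24-fold with no overlap (log2 0.31, SE 0.033, adjusted p = 2.10e-14 in edgeR). LAMP1, a heavily glycosylated coat protein of the membrane, had 309, 305 and 304 CPM in control and 349, 359 and 353 CPM in treated libraries. LAMP1 varied little within each group, and it rose 1.16-fold (log2 0.21, SE 0.037, adjusted p = 1.17e-06 in edgeR).

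SCARB2, also called LIMP-2, an abundant protein of the lysosomal membrane, had 45.3, 44.2 and 51.7 CPM in the controls and 60.2, 66.1 and 56.5 CPM with tamarixetin. All its treated libraries were above the controls (log2 0.37, SE 0.069, adjusted p = 3.84e-06 in edgeR). CTNS, the exporter of cystine from lysosomes, rose from 10.2 ± 0.583 to 13.7 ± 0.758 CPM (SD, n = 3 each; log2 0.43, SE 0.132). LAMP2, the partner of LAMP1 and a receptor of chaperone-mediated autophagy, passed by little (log2 0.12, SE 0.048, adjusted p = 0.0376 in edgeR). LAMP2 did not pass without control replicate 1 (adjusted p = 0.0609) or 2 (0.157), nor without tamarixetin replicate 2 (0.0508) or 3 (0.194). MCOLN1, the calcium channel TRPML1, had 2.33 to 3.96 CPM over all 6 libraries, with a log2 difference of 0.24 (95% interval -0.27 to 0.75), so that a change as large as the median of this class was not detectable at this depth.

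Differences of the 12 listed proton pump genes spanned a narrower range than those of the other listed genes, which are more numerous. This did not hold for the further pump subunits given below, which ran from -0.93 to 1.15. Of the 12 listed genes, 6 rose (50%, against 22.4% of all genes tested), none fell and 6 did not pass. Their median log2 fold change was 0.15, with a range of -0.039 to 0.39. The other 29 genes tested ran from -0.52 to 1.51, with a median of 0.24. The summed level of the 12 pump genes was 1236, 1247 and 1263 CPM in the controls and 1353, 1330 and 1306 CPM with tamarixetin. Their share of the sum over all 42 genes was 25.3% ± 0.203 in control and 23.6% ± 0.338 in treated libraries (SD, n = 3 each).

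**Figure D3:**
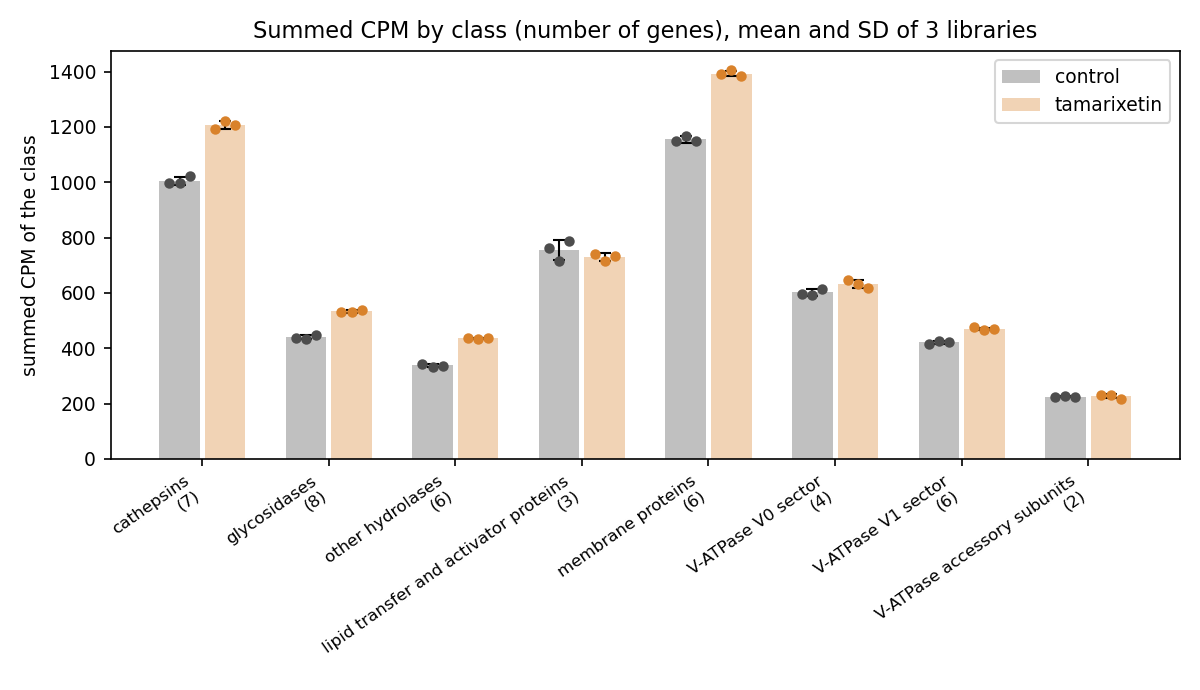
Summed CPM (y axis, from 0) of each class in control (grey) and tamarixetin (orange) libraries; bars are means of 3 libraries, whiskers the SD and points the libraries. Cathepsins (1006 to 1207 CPM) and membrane proteins (1155 to 1393 CPM) had the highest sums with the pump split into its 3 parts (together 1249 to 1330 CPM), and the lipid transfer and activator class and the accessory subunits show overlapping points.

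In the V0 sector 2 of 4 rose (22.4% of all genes tested did so). ATP6V0E1, a small membrane subunit, had 124, 119 and 125 CPM in the controls and 149, 140.3 and 147 CPM with tamarixetin (log2 0.24, SE 0.047, adjusted p = 7.62e-06 in edgeR). ATP6V0D1, which couples the rotor shaft to the proton-carrying ring, had 41.7, 42.6 and 45.3 CPM in control and 47.1, 51.0 and 49.1 CPM in treated libraries. Neither overlapped between groups, but ATP6V0D1 passed by little (log2 0.18, adjusted p = 0.0327 in edgeR). It did not pass without control replicate 1 (adjusted p = 0.116) or 2 (0.0921), nor without tamarixetin replicate 2 (0.134) or 3 (0.0633).

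ATP6V0C, which forms most of that ring, was the most abundant pump gene, with 401, 404 and 416 CPM in the controls and 416, 415 and 391 CPM with tamarixetin. Its groups overlapped, and the 95% interval of its log2 difference ran from -0.071 to 0.073. ATP6V0A1, the subunit with the proton path, had 30.1, 28.6 and 29.2 CPM in control and 34.1, 27.4 and 30.9 CPM in treated libraries. It did not pass, and its sign turned without tamarixetin replicate 1 (log2 0.074 with all libraries and -0.0091 without it).

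In the V1 sector 4 of 6 rose, against 22.4% of all genes tested. ATP6V1E1, a peripheral stalk subunit, had 82.1, 87.8 and 81.7 CPM in the controls and 103, 108 and 101 CPM with tamarixetin (log2 0.31, SE 0.054, adjusted p = 5.67e-07 in edgeR). ATP6V1B2, of the ATP-binding head, had 119, 116 and 115 CPM in control and 135, 134 and 132 CPM in treated libraries (log2 0.20, SE 0.048). ATP6V1H, a regulatory subunit, had 19.2, 20.8 and 23.6 CPM in control and 26.6, 26.3 and 31.1 CPM in treated libraries (log2 0.39, SE 0.097). None of these genes overlapped between groups, and ATP6V1C1, which links stalk and membrane sector, rose by 0.28.

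ATP6V1A, the catalytic subunit and the most abundant of this sector, had 143, 147 and 142 CPM in the controls and 143, 136 and 143 CPM with tamarixetin. Its log2 difference was -0.039 (95% interval -0.13 to 0.053), with overlapping groups. The count ratio of ATP6V1E1 to ATP6V1A was 0.581 ± 0.0138 in control and 0.741 ± 0.0445 in treated libraries (SD, n = 3 each). ATP6V1D, the rotor shaft, did not pass (log2 0.12). It shares 253 exon bases with EIF2S1 on the opposite strand, and EIF2S1 rose (log2 fold change 0.36). The accessory subunits ATP6AP1 (151, 151 and 149 CPM in control, 157, 156 and 144 CPM treated) and ATP6AP2 (71.8, 75.6 and 75.6 CPM in control, 75.4, 74.4 and 74.1 CPM treated) overlapped between groups, with 95% intervals of -0.070 to 0.11 and -0.11 to 0.12.

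The remaining pump subunits and the other genes of the lysosome were counted from the same fit. Of 13 further V0 and V1 subunits 8 could be tested: 4 rose and none fell. ATP6V0E2, a second small V0 subunit, had 257, 249.7 and 254 CPM in the controls and 358, 340.5 and 343 CPM with tamarixetin (log2 0.45). ATP6V0B, of the proton-carrying ring, and ATP6V1G1, of the stalk, rose by 0.38 and 0.27. ATP6V1E2 rose by 1.15 from 2.38 CPM. ATP6V1B1, at 1.55 CPM in control, was lower in every treated library but did not pass (log2 -0.93, adjusted p = 0.0755 in edgeR). Together with the listed subunits, 10 of 18 V0 and V1 subunits tested rose (55.6%) and none fell. Over all genes tested 22.4% rose and 21.3% fell. Of 7 assembly factors tested none rose and 2 fell, CCDC115 (log2 -0.46), which helps build the V0 sector, and ROGDI (-0.29), of a complex that joins the sectors; 21.3% of all genes fell. The groups of ROGDI overlapped, and without control replicate 1 or 3 or tamarixetin replicate 2 the list had 1 gene that fell.

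Hydrolases outside the 42 genes were called in either direction about equally often: of 29 tested 6 rose (20.7%) and 5 fell (17.2%), both shares near the background of 22.4% and 21.3%. The sulfatase ARSG rose and had 6.08, 4.08 and 6.39 CPM in control and 16.7, 19.6 and 16.2 CPM in treated libraries (log2 1.64). HYAL1, which degrades hyaluronan, fell by 0.47, and PRCP, FUCA1, CTSV and ARSB had log2 fold changes of -0.16, -0.23, -0.38 and -0.22. Without control replicate 3 or tamarixetin replicate 2 the list had 2 genes that fell, and without tamarixetin replicate 1 it had 3. A further 8 genes had too few counts for a test, among them GALC, at 0 to 0.125 CPM, which was named after its values were seen.

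Of 27 further membrane proteins and transporters tested, 12 rose (44.4%) and 3 fell (11.1%). Over all genes tested 22.4% rose and 21.3% fell. SLC29A3, a nucleoside transporter, rose by 0.77, the cholesterol exporter NPC1 by 0.62 and the sialic acid exporter SLC17A5 by 0.57 on the log2 scale. LAPTM4A, the most abundant of this list, had 894, 898 and 932 CPM in the controls and 769, 764 and 772 CPM with tamarixetin, a log2 fold change of -0.24. The iron transporter SLC11A2 (-0.36) and HGSNAT (-0.40), an acetyltransferase of heparan sulfate breakdown, also fell. CLCN7, a chloride-proton exchanger, and OSTM1, its obligate partner, rose by 0.79 and 0.81, and their count ratio of OSTM1 to CLCN7 was 0.915 ± 0.110 in control and 0.921 ± 0.0710 in treated libraries (SD, n = 3 each); this pair was picked after its values were seen.

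Of 13 genes listed for the tagging, sorting and handling of hydrolases, 3 rose and 3 fell (23.1% each). Both shares were near those over all genes tested (22.4% and 21.3%). Not all of the 13 act through the mannose 6-phosphate tag, LMAN1 and SORT1 among them. The genes of the mannose 6-phosphate receptors were among those that rose. IGF2R, the large receptor, had 139.7, 125 and 123 CPM in control and 177, 175 and 184 CPM in treated libraries (log2 0.47). M6PR, the small one, rose by 0.45. GNPTG, a subunit of the enzyme that starts the tag, rose by 0.28. NAGPA, which uncovers the tag, fell from 70.6 ± 5.09 to 59.2 ± 1.48 CPM (SD, n = 3 each; log2 -0.26), the adaptor GGA2 had a log2 fold change of -0.25 and the cargo receptor LMAN1 of -0.10.

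The MiT/TFE factors themselves did not pass. TFEB had 6.08, 7.83 and 8.90 CPM in the controls and 6.99, 6.51 and 7.34 CPM with tamarixetin, with a log2 difference of -0.13 (95% interval -0.47 to 0.20). TFE3 had 20.9 ± 2.14 and 20.4 ± 2.58 CPM (SD, n = 3 each; log2 -0.033, 95% interval -0.24 to 0.18), and MITF was under 2 CPM in each library. These values are RNA levels; the activity of these factors depends on where the protein is and was not measured.

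Of 22 genes tested among these factors and the nutrient-sensing machinery on the lysosomal surface, 7 rose (31.8%) and 1 fell (4.55%). The shares over all genes tested were 22.4% and 21.3%. FLCN, a GTPase activator that acts on the Rag GTPases, had 21.8, 20.9 and 23.2 CPM in control and 31.2, 35.2 and 35.4 CPM in treated libraries, a log2 rise of 0.62 (SE 0.090). RHEB, the GTPase that switches on mTORC1, rose by 0.52 and RRAGC by 0.37, both without overlap. RRAGD rose by 0.78 (SE 0.27) from a low level of 2.26 CPM. LAMTOR5, MTOR and FNIP1 rose by 0.21, 0.34 and 0.26. The groups of FNIP1 overlapped. FNIP2, a partner of FLCN, fell by 0.30 on the log2 scale.

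**Figure D4:**
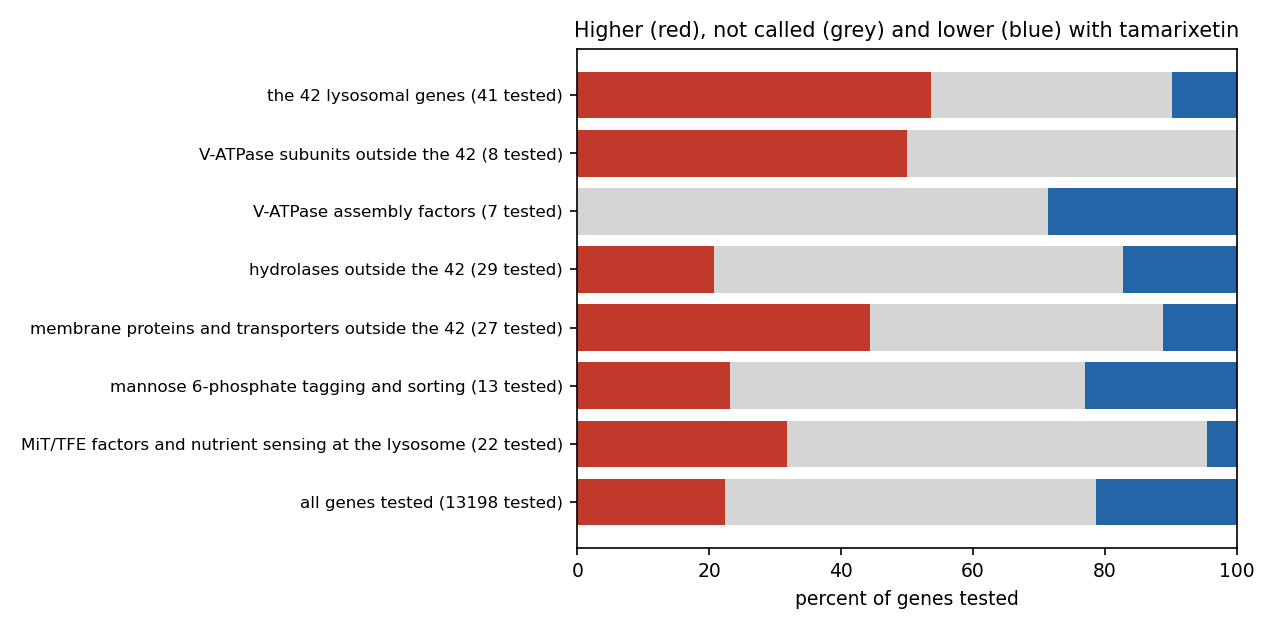
Percent of genes tested (x axis) that rose (red), did not pass (grey) or fell (blue) in the 42 lysosomal genes, in 6 related lists and over all 13198 genes tested; the number tested is given beside each list. The 42 genes have the widest red bar, and further hydrolases lie close to all genes.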

How the data were processed

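The authors deposited raw counts per gene symbol, 1 table per library (3 control, 3 tamarixetin). The labels' protocols name the QuantSeq 3′ forward kit. The submitters' processing notes list GRCh38, featureCounts 2.0.6, STAR 2.7.10b and fastp 0.23.1. The annotation, strand setting and handling of molecular identifiers were not stated in the sources used here. All 6 libraries were fitted in edgeR 4.0.16 (R 4.3.3): filterByExpr, TMM scaling, the quasi-likelihood F test on group alone, and Benjamini-Hochberg adjustment over 13198 genes at 0.05. SE was taken as the log2 fold change over the root of F. On simulated counts (13214 genes tested) the test recovered 56% of 50 genes changed 1.25-fold and 80% of 50 genes changed 1.5-fold. It recovered 94% of 50 genes changed 2-fold, and there were 9 false calls. Far fewer genes were changed in the simulation than the 5771 called here, so these rates need not hold for this fit.

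Pairs of libraries within a group had a chi-square per gene from 2.33 to 3.40, above sampling noise, so none was treated as a copy. The genes and lists were chosen with earlier results of these data known. Values per library are given for the 3 genes of each class with the smallest p, its most abundant gene and genes called against the rest; of related lists the 4 with the smallest p and those called against the rest are named, except some hydrolases outside the 42 genes that are not reported here. TFEB, TFE3, MITF and genes rising below those ranks were named after their values were seen. Alternatives covered scaling, filters, DESeq2 1.42.0, limma-voom 3.58.1, a minimum fold, the replicate block and leaving out each library. Exon overlaps came from GENCODE 29 (GRCh38), which need not be the annotation of the counts. Some lie on the same strand. Among these, CTSD (1166 bases), ATP6V0C (862) and TPP1 (665) share exon bases with genes whose symbols are not in the count tables. So do HEXA (617), NAGLU (379) and MCOLN1 (169). GLB1 shares 83 with TMPPE, which did not pass (log2 0.28). The part of these overlaps in the counts was not tested.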

Additional observations from a re-analysis of the deposited data

How the results depend on the processing

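Of the 26 genes called, 23 kept direction and call under every alternative but the minimum fold of 1.2; the other 3 were LAMP2, ATP6V0D1 and SMPD1. With that minimum fold 7 of the 42 genes changed, 6 higher and 1 lower, and 2560 of all genes, 1319 higher and 1241 lower. LAMP2 and ATP6V0D1 did not pass with upper quartile factors (adjusted p = 0.159 and 0.0923), without a filter (0.0657 and 0.0550) or in DESeq2 (0.0659 and 0.0630). NAGLU (0.0396) and SGSH (0.0472) passed with library size alone, LIPA (0.0468) with upper quartile factors and MANBA (0.0424) without tamarixetin replicate 1. The other alternatives gave 23 to 28 changed genes of the 42. Leaving out a library gave 20 to 23 higher and 3 to 4 lower, and medians of 0.17 to 0.22. With the replicate number as a block 22 rose and 4 fell, as without it; same-numbered libraries did not deviate together (correlations -0.041 to -0.0089), so the numbers were not taken as pairs, and no sample correlated best with its own number.

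Some genes that did not pass changed sign around 0. ATP6V0C had log2 differences of -0.0020 with DESeq2 size factors, -0.035 with upper quartile factors, -0.0072 with at least 5 CPM in 3 libraries and -0.0019 in DESeq2, and -0.0137 to -0.0100 without control replicate 1 or 2 or tamarixetin replicate 1 or 2 (highest 0.0294, without tamarixetin replicate 3). PSAP had 0.014 with library size alone, and -0.0629 to 0.0063 (without control replicate 3) on leaving out a library. ATP6AP1 had -0.014 with upper quartile factors and -0.0018 (without tamarixetin replicate 1) to 0.0586 on leaving out a library. ATP6AP2 had -0.030 with upper quartile factors, -0.0021 with at least 5 CPM in 3 libraries, and -0.0225 and -0.0012 without control or tamarixetin replicate 1 (highest 0.0151). ATP6V0A1 had -0.0091 (without tamarixetin replicate 1) to 0.1559. The cause was not tested. MCOLN1 had 28 to 57 counts per library and CTSZ 4 to 9, so their values are the least precise of the 42. The 2 falls among assembly factors dropped to 1 without control replicate 1 or 3 or tamarixetin replicate 2, 1 of the further pump subunits fell without control replicate 1, and 2 nutrient-sensing genes fell without control replicate 3.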
